A study of Drosophila melanogaster with 16 samples.

Results

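The 8 Hox genes of Drosophila, labial (lab), proboscipedia (pb), Deformed (Dfd), Sex combs reduced (Scr), Antennapedia (Antp), Ultrabithorax (Ubx), abdominal A (abd-A) and Abdominal B (Abd-B), were followed through the tissues of the adult foregut. They were chosen by gene symbol, 8 of the 13619 protein-coding genes measured, and each was present in the table of every library. RNA was sequenced from 16 libraries of tissue pooled from adult mated Canton-S females reared axenically, that is, without microbes. In 3 groups LpWF, which is a Lactiplantibacillus plantarum strain, was added to the culture of the adult flies, and the tissue was the salivary gland (SG, 3 libraries), the crop with its duct (3 libraries) or the proventriculus (PV, the valve between esophagus and midgut, 5 libraries). The fourth group was PV from flies kept axenic (5 libraries). The labels do not say that libraries of a group came from separate cultures, so p-values measure the spread between these libraries.

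Hox genes encode homeodomain transcription factors that give the segments of the body their identity, and their order along the chromosome matches the order of the body regions in which they act. In flies they lie in the Antennapedia complex, which holds lab to Antp, and the bithorax complex, which holds Ubx, abd-A and Abd-B. In the embryonic gut, lab is needed for the copper cells of the midgut, and Scr, Antp, Ubx and abd-A act in the visceral mesoderm around it. In the embryo Scr also specifies the salivary gland, an organ distinct from the adult gland. Once set, Hox patterns are held by Polycomb group repressors and trithorax group activators, and most Hox proteins bind DNA with the cofactors Extradenticle and Homothorax.

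Reads on genes numbered 18186391 to 45500807 in a library. Levels are given as coding TPM, the deposited TPM rescaled over protein-coding genes, which corrects for transcript length. Differences were tested on read counts with edgeR's quasi-likelihood test after TMM normalization, with Benjamini-Hochberg adjustment over all genes, and a gene was called at an adjusted p under 0.05. The scales part company where a few genes take most of the RNA: the top 10 genes held 87.7 to 89.2% of coding TPM in SG and 12.2 to 15.5% in crop libraries. Over the protein-coding genes tested, the median log2 ratio of coding TPM was -3.88 for SG against crop, -2.87 for SG against PV LpWF, 0.97 for crop against PV LpWF and 0.11 for PV LpWF against PV axenic, while the medians of the edgeR log2 fold changes were -0.01, -0.10, 0.01 and 0.01. SG libraries were made from poly(A)-selected RNA and the others from RNA depleted of ribosomal RNA, so tissue and preparation cannot be told apart in either SG comparison. The SG list of sage, fkh and CrebA summed to 41.4 to 47.8 coding TPM in SG, 91.4 to 98.3 in crop and 65.4 to 83.7 in PV LpWF libraries, and so was not highest in SG on this scale. Of the list, only sage was, at 24.9 ± 0.769 coding TPM in SG (SD, n = 3), 0.459 ± 0.340 in crop (SD, n = 3) and 1.54 ± 0.184 in PV LpWF libraries (SD, n = 5). The PV epithelium genes Muc68D, Pgant4 and Chs2 summed to 11830 to 18237 coding TPM in PV LpWF, 598 to 3606 in crop and 0.184 to 2.51 in SG libraries.

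Hox transcripts drew few reads in each tissue. Summed over the 8 genes, coding TPM was 0.156 to 0.268 in SG, 1.91 to 2.48 in crop, 0.425 to 2.39 in PV LpWF and 0.287 to 0.797 in PV axenic libraries. Only 1207 estimated reads fell on the 8 genes in all 16 libraries. Of the 128 pairs of gene and library, 49 had over 3 reads and 50 had none. Antp in the crop was the only member to average at least 1 coding TPM in a group, a level that 61.7% of protein-coding genes reached in the crop, 33.6% in SG, 59.2% in PV LpWF and 57.9% in PV axenic libraries. The median protein-coding gene averaged 6.73 coding TPM in the crop and 0.167 in SG. Antp in the crop, at 1.21, thus lay below its median, while Scr in SG, at 0.190, lay above it. Each tissue had its own leading member: Scr in SG, Antp in the crop and lab in the PV. In bulk RNA, fewer cells of a type and less RNA per cell cannot be told apart.

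**Figure D1:**
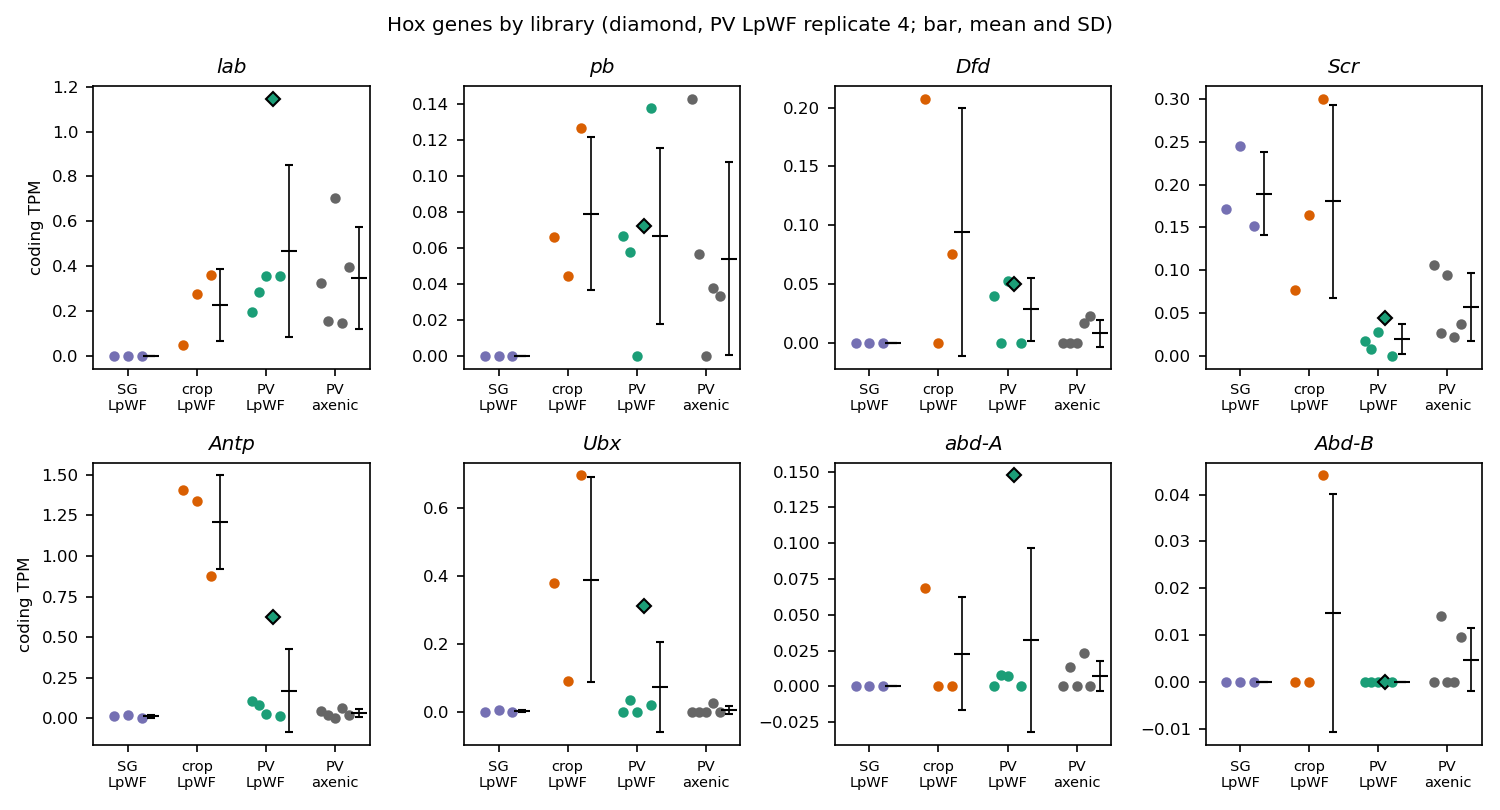
Coding TPM of each Hox gene (vertical axes, which differ between panels) in the SG LpWF, crop LpWF, PV LpWF and PV axenic groups. Points are libraries, the diamond is PV LpWF replicate 4, and bars give the mean and SD, with n = 3, 3, 5 and 5. Antp is highest in the 3 crop libraries, and lab is at 0 in the 3 SG libraries.

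Counted by comparison, SG against crop had 1 member called higher (Scr) and 1 called lower (Antp) of the 2 that passed the filter, where 36.6% of all genes tested were called higher and 39.5% lower. SG against PV LpWF had 1 called higher (Scr) and 1 lower (lab) of 3, where 35.2% of all genes were called higher and 41.3% lower. Crop against PV LpWF had none called of 3 (Antp, Ubx and lab, with unadjusted p = 0.0644, 0.190 and 0.0273), where 26.1% of all genes were called higher and 25.5% lower. DESeq2 called lab lower in that comparison and no member higher. Each member called in an SG comparison passed the filter there only through the group where it was higher. With so many genes called between tissues, these counts do not set the Hox genes apart.

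The first genes of the Antennapedia complex pattern the head. In coordinates of the BDGP6 assembly, lab (FBgn0002522) spans 3R:6661427-6678590, pb (FBgn0051481) 3R:6707800-6742063 and Dfd (FBgn0000439) 3R:6791836-6802428.

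The lab gene, at the 3R position named first, is the most anterior in action. No read of lab was found in any of the 3 SG libraries, where 3 reads would correspond to 0.0119 to 0.0133 coding TPM. The crop libraries had 0.0454, 0.273 and 0.359 coding TPM, from 2, 9 and 13 reads. Across both PV groups lab was detected in every library, at 0.196, 0.282, 0.354, 1.15 and 0.355 coding TPM in PV LpWF, against 0.325, 0.155, 0.702, 0.144 and 0.397 coding TPM in PV axenic. The means were therefore ordered PV LpWF (0.467 ± 0.385, SD, n = 5), PV axenic (0.345 ± 0.228, SD, n = 5), crop (0.226 ± 0.162, SD, n = 3) and SG, and the ranges of the first 3 overlapped. Nearly all lab reads were assigned to the transcript lab-RA, which took each of the 70 reads of PV LpWF replicate 4 and the 60 reads of PV axenic replicate 3.

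Between SG and PV LpWF, lab was called lower in SG (edgeR adjusted p = 0.00204). It passed the filter on low counts through the PV libraries alone. Because the SG libraries were at 0, the fold is a bound, taken from the PV LpWF mean of 0.778 TMM-normalized CPM and the highest value that 3 reads give in an SG library, 0.155 CPM: lab was at least 5.03-fold lower in SG, or at least 3.16-fold lower without PV LpWF replicate 4. Between crop and PV LpWF, lab had 0.0589, 0.372 and 0.416 TMM-normalized CPM in crops against 0.509, 0.695, 0.858, 3.02 and 1.04 CPM in PV LpWF. Each crop library lay below each PV LpWF library, and the log2 difference of -2.11 ± 0.81 (SE) just missed the threshold (adjusted p = 0.0525). It passed against all 10 PV libraries (-1.96, adjusted p = 0.0359) and in DESeq2 (-2.16, adjusted p = 0.0121), but was -1.46 with an adjusted p of 0.0943 without PV LpWF replicate 4.

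Digestive protease genes followed lab in some libraries and not in others. The genes summed were Jon99Cii, Jon65Aiv and betaTry, used here as enterocyte markers. The paper assigns all of them to a cell group of the posterior PV, and Jon99Cii to midgut enterocytes as well. Their summed coding TPM was 174, 1024 and 4029 in crop replicates 1, 2 and 3. That is the same order as lab, which had only 2, 9 and 13 reads there. In PV LpWF replicate 4, the library with the most lab, the sum was 24525, against 1037 to 9354 in the other 9 PV libraries. In SG the sum was 2.05 to 4.07. Among the 9 PV libraries other than PV LpWF replicate 4 the sum did not follow lab. PV axenic replicates 3 and 5, the highest of these in lab, had sums of 6661 and 1803, PV LpWF replicate 5 with 0.355 coding TPM of lab had the lowest sum (1037), and PV LpWF replicates 1 and 2 with 0.196 and 0.282 had 8243 and 9354. The part of posterior PV cells or of carried-over midgut in the lab values was not tested.

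The mouthpart selector pb and the head gene Dfd had few reads. For pb, 9 of the 16 libraries had over 3 reads, all of them crop or PV, and for Dfd 2 had. No pb or Dfd read was found in the SG libraries. The level of pb was 0.0445 to 0.127 coding TPM in crop, 0 to 0.138 in PV LpWF and 0 to 0.143 in PV axenic libraries, at most 15 reads in a library, and the 3 ranges overlapped. For Dfd, only crop replicate 1 (9 reads, 0.207 coding TPM) and PV LpWF replicate 3 (5 reads, 0.0529 coding TPM) had over 3 reads. Neither gene passed the filter on low counts in any comparison. The mean of pb was highest in the crop by coding TPM (0.0791 ± 0.0426, SD, n = 3) and in PV LpWF by TMM-normalized CPM over the 16 libraries (0.192 ± 0.152, SD, n = 5, against 0.161 in PV axenic and 0.110 in crop), so its order depends on the scale.

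Scr (FBgn0003339, 3R:6823120-6849981) patterns the labium and first thoracic segment. In SG libraries it had 78, 124 and 72 reads, of which the 124 of replicate 2 were the most for a Hox gene in a library, and 0.172, 0.245 and 0.152 coding TPM. Crop libraries had 5, 8 and 18 reads, or 0.0767, 0.164 and 0.300 coding TPM. PV LpWF libraries had 0.0177, 0.00763, 0.0282, 0.0442 and 0 coding TPM, against 0.106, 0.0261, 0.0949, 0.0222 and 0.0368 in PV axenic libraries. On this scale SG and crop overlapped, and SG lay above all 10 PV libraries.

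On TMM-normalized reads the SG libraries stood apart. Scr was at 4.98, 5.92 and 4.40 CPM in SG, against 0.108, 0.241 and 0.425 CPM in crop libraries, a log2 difference of 4.29 ± 0.46 (SE, adjusted p = 1.54e-05). The difference was 4.90 without crop replicate 3. Against PV LpWF, Scr was at 4.02, 5.03 and 3.68 CPM in SG and at 0.0433, 0.0177, 0.0639, 0.110 and 0 CPM in PV LpWF libraries, a log2 difference of 6.36 ± 0.49 (SE, adjusted p = 1.07e-06). Scr passed the filter in these fits through the SG libraries alone. By coding TPM the SG mean was 0.190 ± 0.0489 (SD, n = 3) and the crop mean 0.180 ± 0.113 (SD, n = 3), on a scale where the median log2 ratio of the genes tested was -3.88. The difference of SG from crop thus holds relative to the other genes tested and not as a share of coding transcripts, while SG lay above PV LpWF on both scales.

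**Figure D2:**
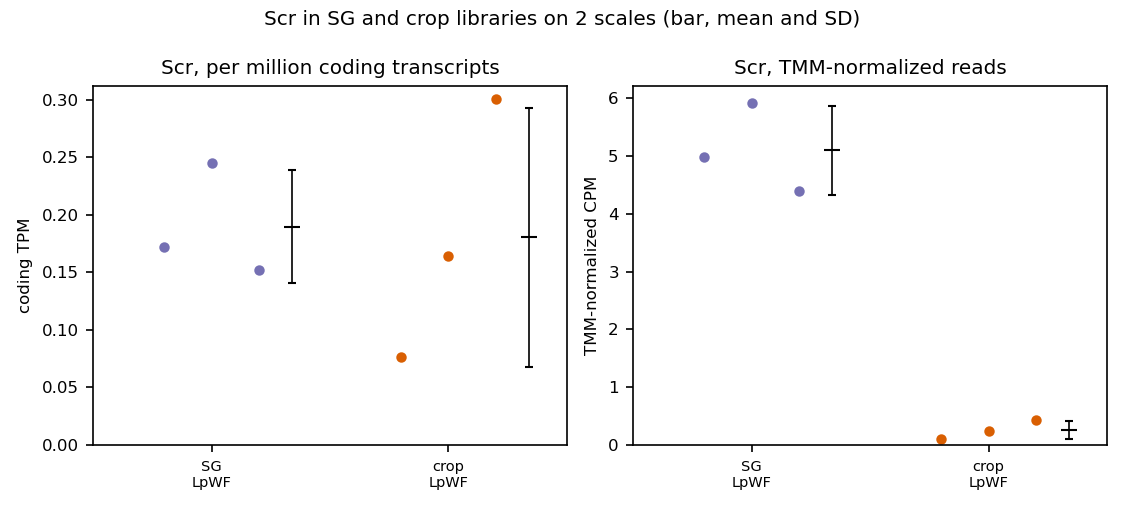
Scr in the 3 SG LpWF and 3 crop LpWF libraries, as coding TPM (left) and as TMM-normalized CPM of the SG and crop fit (right). Points are libraries and bars give the mean and SD (n = 3 each). The groups overlap on the left and are apart on the right, at 4.40 to 5.92 CPM in SG and 0.108 to 0.425 CPM in crop.

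The Scr reads of SG also differed in the transcript they were assigned to. The assignment is an estimated split between overlapping transcripts, so it is given as a description. The files list 2 Scr transcripts, Scr-RA and Scr-RB, of the 5 in the annotation used here. Scr lies on the minus strand, where Scr-RB starts at 6849981 and ends at 6824522, and Scr-RA starts at 6848505 and ends at 6823120, so that the transcripts differ at both ends. All 78 and 124 reads of SG replicates 1 and 2 and 67.3 of the 72 reads of replicate 3 were assigned to Scr-RA, 100, 100 and 93.2% of the Scr TPM. In the crop all 31 reads were assigned to Scr-RB, as were all 11 in PV LpWF and 26 of 33 in PV axenic, the other 7 being the reads of PV axenic replicates 4 and 5. Only the SG libraries reached the 30 reads set for a transcript share. The 3 SG libraries were also the poly(A)-selected ones, and the share of preparation in the transcript choice was not tested.

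**Figure D3:**
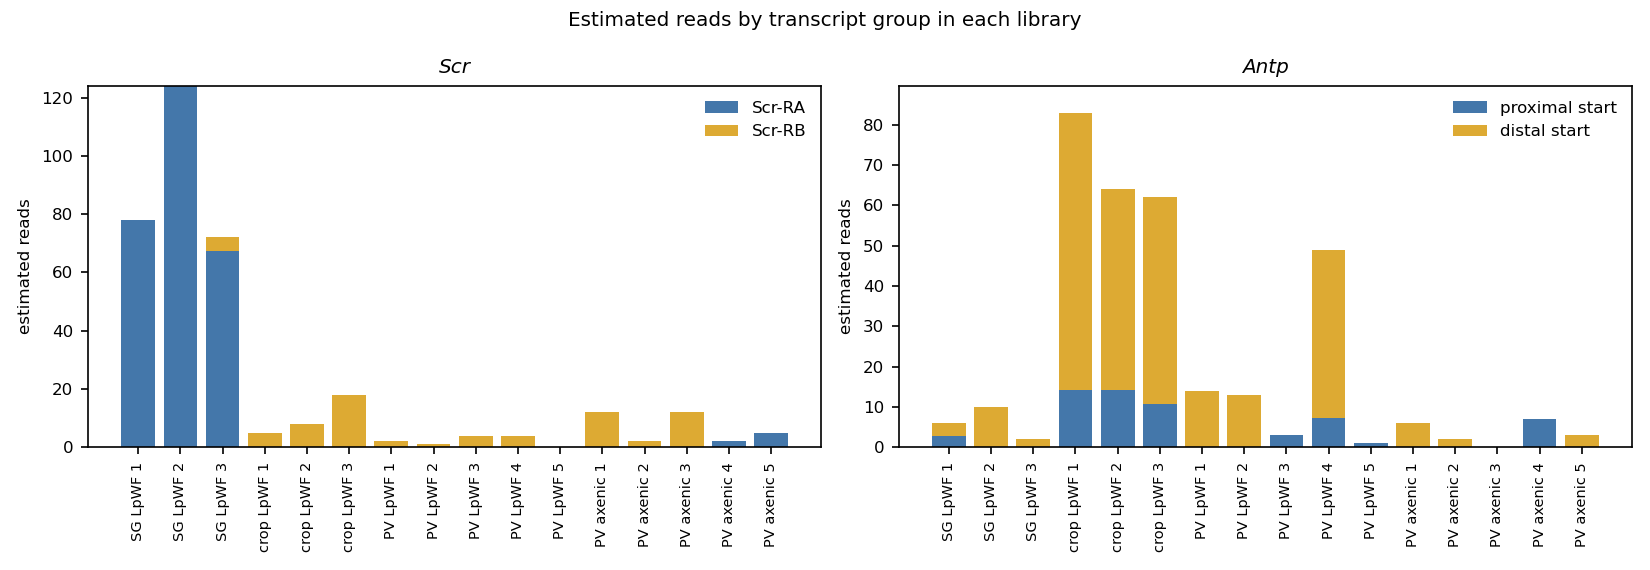
Estimated reads (vertical axes) of Scr, split by transcript, and of Antp, split by start site, in each of the 16 libraries from SG LpWF on the left to PV axenic on the right. Scr reads of SG are nearly all Scr-RA, and Antp reads of the crop are mostly from the distal start.

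Antp (FBgn0260642, 3R:6896253-6999228), the gene of the second thoracic segment, was the highest of the Hox genes in each crop library. The crop libraries had 1.41, 1.34 and 0.874 coding TPM from 83, 64 and 62 reads, and the SG libraries had 0.0165, 0.0175 and 0.00373 coding TPM from 6, 10 and 2 reads. PV LpWF libraries had 0.105, 0.0844, 0.0244, 0.625 and 0.0163 coding TPM, against 0.0449, 0.0222, 0, 0.0655 and 0.0196 in PV axenic libraries. Each crop library lay above each of the 13 others. The nearest was PV LpWF replicate 4 with 49 reads. Antp ranked between 8002 and 8436 among the 13619 protein-coding genes in crops, and Scr between 6616 and 6786 in SG.

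Antp was called lower in SG than in the crop. It passed the filter through the crop libraries alone. It had 0.383, 0.477 and 0.122 TMM-normalized CPM in SG against 1.79, 1.93 and 1.46 CPM in crop libraries, a log2 difference of -2.36 ± 0.51 (SE, adjusted p = 0.00191). Between SG and PV LpWF the difference was -0.49 ± 1.11 (SE, adjusted p = 0.700). It turned to 0.55 (adjusted p = 0.501) with a replicate block. In that fit PV LpWF replicates 4 and 5, with no SG library of their number, do not inform the difference.

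Between crop and PV LpWF, Antp missed the threshold, and PV LpWF replicate 4 lay above the lowest crop library. TMM-normalized CPM was 2.44, 2.65 and 1.98 in crop libraries against 0.475, 0.361, 0.0757, 2.12 and 0.0614 in PV LpWF libraries. The log2 difference was 1.94 ± 0.92 (SE, adjusted p = 0.107). Without PV LpWF replicate 4 it was 3.20 ± 0.62 (SE, adjusted p = 0.00221), and against all 10 PV libraries 2.59 ± 0.88 (SE, adjusted p = 0.0213). With a replicate block it was 3.14 (adjusted p = 0.00895). In that fit PV LpWF replicates 4 and 5, with no crop library of their number, do not inform the difference. All other alternatives that kept PV LpWF replicate 4 and tested Antp missed the threshold. Their adjusted p ran from 0.0651 (DESeq2) to 0.202 (without crop replicate 2). Marker lists of several cell types and tissues also differed between crop and PV LpWF. The paper describes the crop as muscular and proposes that its duct extends the esophagus. Muscle and esophagus genes are thus also those of the dissected tissue itself. Act57B and the other 4 genes of the muscle list were all called higher in the crop than in PV LpWF, with summed levels of 6442 to 7391 coding TPM in crop and 464 to 615 in PV LpWF libraries. PV LpWF replicate 4 was the lowest of these in muscle genes (464). Summed coding TPM of hemocyte genes was 332 to 365 in crop and 13.2 to 17.8 in PV LpWF libraries, of tracheal genes 34.5 to 41.9 and 1.67 to 2.19, and of esophagus genes 6214 to 7728 and 668 to 1013. Of the 4 hemocyte genes 1 was called higher and 1 lower in the crop, with log2 differences from -2.66 to 5.10. That sum thus does not stand for its list as a whole. Of 3 tracheal genes 2 were called higher and 0 lower, and the 2 esophagus genes were called higher. The part of these cell types and tissues in the Antp level was not tested.

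Antp has a distal start at 6999228 and a proximal start at 6932840 on the minus strand, and the files list 11 of its 12 annotated transcripts. In crop libraries the distal transcripts held 82.1, 79.1 and 83.2% of Antp TPM, and in PV LpWF replicate 4, the only PV library with at least 30 Antp reads, 85.1%. The 4 libraries thus had like shares. Which distal transcript led varied: Antp-RI had 58.6 and 45.4% in crop replicates 1 and 2 and Antp-RG 83.2% in crop replicate 3.

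By likeness of pattern, taken as Pearson's r of log2(coding TPM + 0.1) over the 16 libraries among 8769 genes averaging at least 1 coding TPM in a group, the genes nearest to Antp were l(2)k05911 (r = 0.96), Try29F (r = 0.96) and Ctr1B (r = 0.95). Over the 13 crop and PV libraries they were l(2)k05911 (r = 0.98), kcc (r = 0.97) and CG11961 (r = 0.97). Like Antp, l(2)k05911 was highest in the crop, at 1.04 ± 0.169 coding TPM (SD, n = 3), and averaged 0.0601 ± 0.120 in PV LpWF libraries (SD, n = 5). Libraries of a tissue share their source, so such r values rest largely on the contrast between crop and the rest.

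The bithorax complex lies farther along the same arm, with Ubx (FBgn0003944) at 3R:16656623-16734426, abd-A (FBgn0000014) at 3R:16807214-16830049 and Abd-B (FBgn0000015) at 3R:16927212-16972236. Ubx, the gene of the third thoracic segment and haltere, was found in the crop. Crop libraries had 0.379, 0.0908 and 0.696 coding TPM of Ubx, from 26, 3 and 32 reads, and SG libraries 0, 0.00587 and 0. PV LpWF libraries had 0, 0.0338, 0, 0.310 and 0.0208 coding TPM of Ubx, against 0, 0, 0, 0.0255 and 0 in PV axenic libraries. Crop replicates 1 and 3 lay above all other libraries. Crop replicate 2 lay below PV LpWF replicate 4.

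Tests of Ubx were limited by these counts. Between crop and PV LpWF the log2 difference of Ubx was 1.80 ± 1.29 (SE, adjusted p = 0.266). PV LpWF replicate 4 held 19 of the 23 Ubx reads of PV LpWF. Without that library Ubx passed only the looser filter of at least 1 count in any library. This combination was chosen after seeing the data, and the difference was 4.08 ± 1.19 (SE, adjusted p = 0.0138). Between SG and crop Ubx did not pass the filter. With the looser filter it was -3.05 ± 1.23 (SE, adjusted p = 0.0399).

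The abdominal genes were nearly silent. Only crop replicate 1 (6 reads) and PV LpWF replicate 4 (15 reads, 0.147 coding TPM) had over 3 reads of abd-A. Abd-B, the most posterior gene, had 4 reads in all, in 3 of the 16 libraries. For abd-A, 10 libraries had no read. Neither gene passed the filter in any comparison.

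LpWF was compared with axenic PV to ask whether the bacterium changed gene expression there. Of the members only lab passed the filter, with 0.406, 0.548, 0.679, 2.44 and 0.818 TMM-normalized CPM in PV LpWF against 0.718, 0.358, 1.48, 0.268 and 0.909 CPM in PV axenic libraries. The groups overlapped, and the log2 difference was 0.35 ± 0.58 (SE, adjusted p = 0.889). The difference was -0.32 (adjusted p = 0.866) without PV LpWF replicate 4. No member was called (lab had an unadjusted p of 0.558, and DESeq2 called none), where 0% of all genes were called higher and 0.0107% lower by edgeR. At an unadjusted p under 0.05 there were 908 of 9360 genes, and DESeq2 called 16 higher and 35 lower. Among the 6 libraries with under 25% of reads on ribosomal RNA (replicates 1 to 3 of each group), lab differed by -0.65 (adjusted p = 0.758), and among the 4 with over 25% (replicates 4 and 5) by 1.44 (adjusted p = 0.892). With the looser filter of at least 1 count in any library the other 7 members were tested too and none was called. The lowest adjusted p of these was 0.607, for Antp (2.02 ± 1.04, SE) and Ubx (3.17 ± 1.77, SE), and without PV LpWF replicate 4 the differences were 0.69 and 0.84. DESeq2 gave Antp 2.04 with an unadjusted p of 0.0461 and an adjusted p of 0.482.

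PV LpWF replicate 4 held the highest value of lab, Antp, Ubx and abd-A among the 10 PV libraries. Its Antp of 0.625 coding TPM compared with 0 to 0.105 in the other 9, and its Ubx of 0.310 with 0 to 0.0338. Its levels of pb, Dfd and Scr lay within the range of the others. Neuron genes were also highest there, at a summed 10.8 coding TPM against 4.59 to 7.48 in the other 9, as were the protease genes given above. PV epithelium genes were within the range of the others, at 16186 against 11830 to 23825. Lowest of the 10 there were the muscle genes given above, esophagus genes (668 against 704 to 1107), fat body genes (376 against 440 to 1220) and garland nephrocyte genes (below the 13.6 to 25.8 of the others). The part of neighbouring tissue, or of the mix of PV cells, in these values was not tested.

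**Figure D4:**
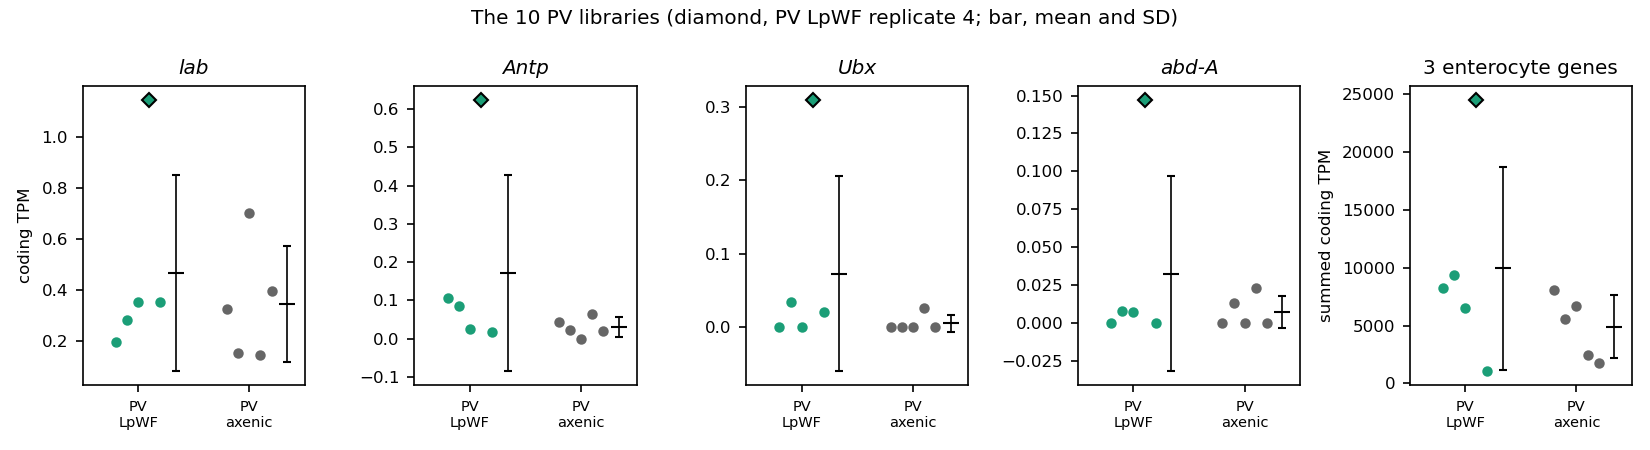
The 10 PV libraries, PV LpWF left of PV axenic, for lab, Antp, Ubx and abd-A in coding TPM and for the summed coding TPM of 3 enterocyte genes. The paper also assigns these 3 genes to a posterior PV cell group. Points are libraries, the diamond is PV LpWF replicate 4, and bars give the mean and SD (n = 5 each). The diamond is the highest point in each panel.

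In contrast with the Hox genes, their cofactors were readily measured. Extradenticle (exd) and homothorax (hth), whose products carry each other to the nucleus and onto DNA with Hox proteins, were highest in the crop. The level of exd was 4.40, 4.74 and 4.19 coding TPM in SG, against 158, 161 and 170 in crop libraries. PV LpWF libraries had 60.0, 53.9, 53.6, 46.1 and 48.1 coding TPM of exd, against 54.4, 52.8, 57.9, 48.3 and 51.6 in PV axenic libraries. On this scale SG, crop and PV thus did not overlap, and the PV groups did. The median log2 ratio of the genes tested was -3.88 for SG against crop and -2.87 for SG against PV LpWF on it. By TMM-normalized CPM of the SG and PV LpWF fit, exd averaged 56.6 in SG and 76.1 in PV LpWF libraries.

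The level of hth was 0.140, 0.123 and 0.0747 coding TPM in SG, against 40.0, 50.9 and 57.2 in crop libraries. PV LpWF libraries had 5.71, 4.73, 5.50, 8.02 and 6.53 coding TPM of hth, against 4.46, 4.24, 4.21, 7.95 and 7.82 in PV axenic libraries. In each PV group replicates 4 and 5, where ribosomal RNA took over 25% of the reads, were the highest.

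Both cofactors were called in each comparison between tissues. In the crop against PV LpWF, hth rose by 2.12 ± 0.22 and exd by 0.67 ± 0.10 on the log2 scale (SE, adjusted p = 6.21e-05 and 0.000302). In SG against crop, hth differed by -4.26 and exd by -1.04 (adjusted p = 1.59e-06 and 6.25e-06), and in SG against PV LpWF by -2.20 and -0.43 (adjusted p = 4.23e-05 and 0.00307). In PV LpWF against PV axenic, exd differed by -0.13 (adjusted p = 0.613) and hth by -0.04 (adjusted p = 0.975).

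**Figure D5:**
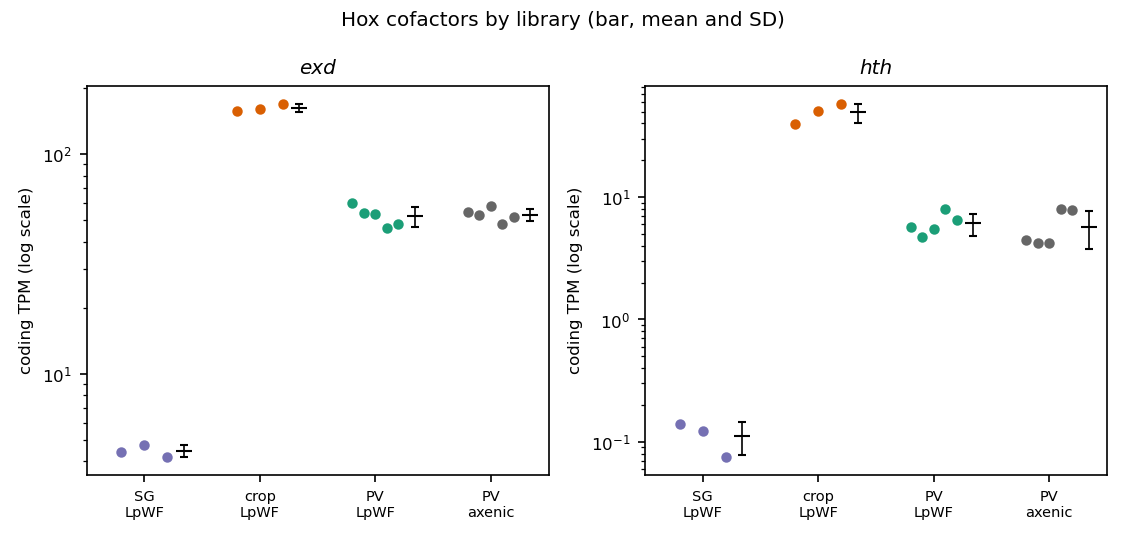
Coding TPM (log axes) of exd and hth in the SG LpWF, crop LpWF, PV LpWF and PV axenic groups. Points are libraries and bars give the mean and SD (n = 3, 3, 5 and 5). Crop libraries are highest and SG libraries lowest for both genes.

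Genes whose products maintain Hox patterns could be tested in every comparison. All 19 Polycomb group genes listed, of the repressive complexes PRC1 and PRC2, the pho complex and PR-DUB, passed the filter in each comparison. In the crop against PV LpWF 4 were called higher and 2 lower, where 26.1% of all genes were called higher and 25.5% lower, with a median log2 difference of 0.16 against 0.01 over all genes. The highest call was escl, a PRC2 subunit (0.87, adjusted p = 0.0203), and the lowest were Su(z)12, another (-0.33, adjusted p = 0.0387), and phol, a DNA-binding recruiter (-0.27, adjusted p = 0.0201). In SG against crop 3 were called higher and 6 lower, where 36.6% of all genes were called higher and 39.5% lower (median -0.18 against -0.04), from Su(z)12 (0.91) to escl (-1.23). In SG against PV LpWF 4 were called higher and 6 lower, where 35.2% of all genes were called higher and 41.3% lower (median -0.03 against -0.14), and in PV LpWF against PV axenic none of 19. The most abundant by coding TPM was pho, a DNA-binding recruiter related to phol, at 33.5 ± 6.15 in crop (SD, n = 3).

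Of 13 trithorax group genes, 3 were called higher and 6 lower in the crop against PV LpWF, 5 higher and 4 lower in SG against crop, and 4 higher and 8 lower in SG against PV LpWF. The shares over all genes are those given for the Polycomb group, and counts this small do not set the list apart from them. The histone methyltransferase gene trx was highest in the crop, at 0.879 ± 0.334 coding TPM in SG (SD, n = 3), 48.0 ± 5.53 in crop (SD, n = 3) and 13.8 ± 1.16 in PV LpWF libraries (SD, n = 5). In the crop against PV LpWF it rose by 0.82 on the log2 scale (adjusted p = 0.000482), and brm, the ATPase of the BRM chromatin remodeller, was the lowest call at -0.80 (adjusted p = 8.59e-05). In SG against crop the order turned, with brm at 1.99 (adjusted p = 1.90e-07) and trx at -1.61 (adjusted p = 5.72e-05). The most abundant of the group, Trl, the GAGA factor gene, was at 9.09 ± 1.89 coding TPM in SG (SD, n = 3), 65.3 ± 2.04 in crop (SD, n = 3) and 26.3 ± 1.98 in PV LpWF libraries (SD, n = 5). On this scale the median log2 ratio of the protein-coding genes tested was -3.88 for SG against crop, so Trl was not low in SG relative to them. None of the 13 was called in PV LpWF against PV axenic.

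Known Hox targets of the embryo were listed too. In the embryonic midgut mesoderm Ubx activates dpp, a BMP ligand, and abd-A activates wg, a Wnt ligand. In the crop against PV LpWF, 2 of the 6 targets tested were called higher and 3 lower, where 26.1% of all genes were called higher and 25.5% lower. The level of dpp was 80.4 ± 10.3 coding TPM in crop (SD, n = 3) and 5.38 ± 0.683 in PV LpWF libraries (SD, n = 5), a log2 difference of 2.89 (adjusted p = 4.05e-07). The level of wg was 2.50 ± 1.28 coding TPM in crop and 17.0 ± 2.27 in PV LpWF libraries, a log2 difference of -3.74 (adjusted p = 5.92e-05). The trunk gene teashirt (tsh) was at 6.13 ± 1.09 coding TPM in crop and 0.243 ± 0.122 in PV LpWF libraries (3.68, adjusted p = 2.01e-05). The fork head gene (fkh), a target of Scr in the embryonic salivary gland, was called higher in SG by 1.57 against crop and by 1.74 against PV LpWF on the log2 scale (adjusted p = 5.10e-07 and 2.53e-07), while its coding TPM was lower in SG (10.5 to 15.5) than in crop (73.5 to 85.3) or PV LpWF libraries (29.5 to 36.5).

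The other listed genes of the complexes had at most 4 reads in a library. The homeobox genes zen and zen2, which lie in the Antennapedia complex without a Hox role, had no read in any library. The genes ftz and bcd, which pattern the early embryo, had at most 2 and 3 reads in a library. The noncoding lncRNA:bxd and lncRNA:iab8 of the bithorax complex had at most 4 and 2 reads, all in crop libraries, and mir-10, mir-iab-4 and mir-iab-8 had none.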

How the data were processed

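Libraries of SG, crop and PV were grouped by their labels, with each library a replicate. The authors ran a Nextflow workflow ending in Salmon on Ensembl release 98 (BDGP6) and deposited 1 table per library. The estimated counts that the authors deposited are not normalized. The TPM that the authors deposited is a share of all RNA in the annotation, coding or not. Effective lengths, deposited in bases, served only for offsets and floors. Whether counting used strand is not given in the sources used here.

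The 33704 transcripts were assigned to 17039 genes by Ensembl release 115 and their values added up. The 271 transcripts with no gene there held 0.128 to 0.257% of reads and were left out. Counts were rounded and tested with edgeR 4.0.16 (R 4.3.3): only the libraries of the groups compared, TMM, filterByExpr, robust quasi-likelihood F tests, and Benjamini-Hochberg adjustment across the genes that passed the filter. The test was checked on simulated data. A value of 0 was read against a floor of 3 reads, which covers counting error only. Transcript shares needed 30 reads. Libraries of a group were not copies (chi-square per gene at least 21.8).

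The members and lists were chosen with earlier results of these data known. All 8 members are named. Of other lists, the highest and lowest log2 fold changes among called genes and abundant genes are named, and the SG, PV and muscle examples were chosen after their values were seen. Alternatives were DESeq2 1.42.0, its size factors, other filters, protein-coding genes only, no robust option, length offsets, a ribosomal RNA term, a replicate block, all PV libraries, other scales, and leaving out each library. Python 3.11.15 with pandas 2.3.3, numpy 2.4.6 and matplotlib 3.10.9 was used for levels and figures. The symbol lncRNA:PRE matched no gene.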

Additional observations from a re-analysis of the deposited data

Results flagged for a closer look

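Samples that stood far from the rest of their group of 5 were looked for over the 8 members in both PV groups, in 15 groups with any spread. The rule was made to mark about 1 in 20 by chance, a rate that does not hold for few reads and many zeros. A single value above 0 among zeros is always marked, so the number found cannot be set against chance. Of the 5 found, 4 were values of PV LpWF replicate 4: lab at 1.15 coding TPM (70 reads) against 0.196 to 0.355 in the other 4 libraries, Antp at 0.625 (49 reads) against 0.0163 to 0.105, Ubx at 0.310 (19 reads) against 0 to 0.0338, and abd-A at 0.147 (15 reads) against 0 to 0.00774. These 4 values come from 1 library and are not independent. The other was Ubx in PV axenic replicate 4, at 0.0255 coding TPM from 2 reads, with no read in the other 4 axenic libraries, which lies below the 3 reads used as a floor.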

How the results depend on the processing

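Scr in SG against crop (log2 difference 3.91 to 4.90 without each library in turn) and against PV LpWF (6.11 to 6.76), Antp in SG against crop (-2.78 to -1.99) and lab in SG against PV LpWF kept their direction and call in every alternative that left them in the test. Each of them passed the main filter only through the group where it was higher, so alternatives with that filter are not independent support. For lab, at 0 in all SG libraries, the direction could not change. The filter of at least 10 counts in every library left none of them in the test, so 0 members were called higher and 0 lower in both SG comparisons. With at least 1 count in any library, 3 members were called lower in SG against crop (Antp, lab, Ubx) and 2 in SG against PV LpWF (lab, pb). DESeq2 called 2 lower in each. Leaving out each library gave 1 to 2 called lower in SG against crop. In crop against PV LpWF, where no member was called, 1 was called higher with all 10 PV libraries and with the replicate block, and 1 lower with all 10 PV libraries and with DESeq2. Leaving out each library gave 0 to 1 higher and 0 to 1 lower, and without PV LpWF replicate 4 with the looser filter, an alternative chosen after seeing the data, 2 were higher (Antp, Ubx). In PV LpWF against PV axenic, lab turned to -0.31 without PV LpWF replicate 4 and with the looser filter, to -0.65 in libraries with under 25% ribosomal RNA (both chosen after seeing the data; 1.44 in those over 25%), and ran from -0.32 to 0.75 without each library. Antp in SG against PV LpWF turned to 0.77 without PV LpWF replicate 4 and with the looser filter. Over all genes, LpWF against axenic gave 0 higher and 1 lower, 16 and 35 with DESeq2, 3 and 11 with a ribosomal RNA term, 0 lower in libraries over 25% ribosomal RNA, 3 lower without PV LpWF replicate 4 with the looser filter, and 1 to 10 lower without each library. For these changes the cause was not tested. By means the crop was the highest group of 5 members, by medians of 3. With 10 reads in place of 30, 27 pairs of gene and library allowed transcript shares in place of 12.

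The labels do not say what a replicate number marks, and the libraries were not treated as paired. Replicates 4 and 5 of both PV groups shared ribosomal RNA over 25%. Deviations of same-numbered PV libraries correlated at 0.02 to 0.442, all above 0 but not all over 0.1, and those of the other comparisons at -0.103 to 0.0299, and not every library correlated best with its own number. A replicate block gave 6 higher and 28 lower genes in PV LpWF against PV axenic. With it Antp turned to 0.55 in SG against PV LpWF. SG and crop have no replicates 4 and 5, so with the block those PV LpWF libraries do not inform either difference. The change in Antp is thus no test of pairing. Depth limits most of these values, since only 12 pairs reached 30 reads.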
